A study of Homo sapiens with 15 samples.

Results

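Transcripts of 10 secreted inflammatory proteins, the chemokines CXCL8, CXCL1, CXCL2, CXCL3, CCL2 and CCL20 and the cytokines IL6, IL1B, LIF and IL11, were followed in HGrC1 cells. They were picked by gene symbol from the deposited table of 37787 genes, and all 10 were detected and tested. HGrC1 is a line of immortalized, non-luteinized granulosa cells of human origin whose own FOXL2 alleles are normal. FOXL2 is the forkhead factor that maintains granulosa cells, and its C134W substitution is the recurrent mutation of adult granulosa cell tumors. SMAD3 carries TGF-beta family signals to the nucleus, and FOXO1 is another forkhead factor.

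Cells at passage 14 were lipofected for 4 h and then kept for 24 h without serum. The Vectors condition received empty vectors. Every other condition received SMAD3, together with FOXL2WT, with FOXL2C134W, or with either of these plus FOXO1-3A, a constitutively active nuclear form of FOXO1. Each of the 5 conditions had 3 libraries, lettered A, B and C. Since SMAD3 came with FOXL2 in every transfected condition, an effect of SMAD3 and an effect of FOXL2 cannot be told apart in comparisons with Vectors. The libraries were made from polyadenylated RNA of transiently transfected cultures, so that transfected and untransfected cells were read together, and fewer cells expressing a gene and less RNA per cell cannot be told apart. Nothing states how the replicate cultures were kept apart, and p-values measure the spread between these libraries.

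Libraries held 14962245 to 25339094 estimated counts. FOXL2 mRNA, in CPM (counts scaled to a common library total), ran from 8.28 to 9.54 in Vectors, from 554 to 566 in FOXL2WT and from 121 to 175 in FOXL2C134W. With FOXO1 it ran from 374 to 401 beside FOXL2WT and from 139 to 176 beside FOXL2C134W. SMAD3 reached 2768 ± 154 CPM (SD, n = 3) in FOXL2WT, 843 ± 37.4 in FOXL2C134W, 969 ± 10.8 in FOXL2WT + FOXO1 and 392 ± 16.9 in FOXL2C134W + FOXO1, against 249 ± 11.99 in Vectors. The mutant and wild-type conditions thus differed in the amount of both mRNAs, and the FOXL2 variant and the amount of mRNA cannot be told apart. Protein amounts were not analysed here. The authors describe FOXL2WT, FOXL2C134W and FOXO1 protein as balanced on an immunoblot of cultures grown in parallel. Of the granulosa markers, FSHR had 0 counts in all 15 libraries, INHA and CYP19A1 had at most 4, and GATA4 and KRT18 were abundant. Among 10 leukocyte markers, TYROBP and AIF1 had 0 counts and PTPRC at most 5. Their summed level was 106 to 119 CPM in Vectors and 90.8 to 99.3 CPM in the other conditions, nearly all of it CD68. The summed level of 4 endothelial markers was 19.2 to 22.5 CPM in Vectors and 13.1 to 18.0 CPM elsewhere. The part of CD68 and of the endothelial markers in the results on the cytokines was not tested.

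Chemokines are small secreted proteins that draw leukocytes through receptors on their surface. CXCL8, CXCL1, CXCL2 and CXCL3 attract mainly neutrophils through CXCR1 and CXCR2, CCL2 attracts monocytes through CCR2, and CCL20 attracts lymphocytes and dendritic cells through CCR6. IL1B is an alarm cytokine that is made as a precursor and cut by caspase-1, and IL6, LIF and IL11 signal through the shared receptor chain IL6ST to STAT3. Many of these genes are known targets of NF-kappaB and AP-1, and their mRNAs are typically short-lived. In the ovary, granulosa cells are one source of such factors around ovulation, when leukocytes enter the follicle wall.

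The 4 CXC genes lie in one cluster on chromosome 4, in the order CXCL8 (73740519 to 73743716, plus strand), CXCL1 (73869393 to 73871308, plus strand), CXCL3 (74036589 to 74038807, minus strand) and CXCL2 (74097040 to 74099196, minus strand) of GRCh38, a span of 358.7 kb. CCL2 is on chromosome 17 (34255274 to 34257208), CCL20 on chromosome 2 (227805739 to 227817564), IL1B on chromosome 2 (112829751 to 112836816), IL6 on chromosome 7 (22725884 to 22732002), LIF on chromosome 22 (30240453 to 30246759) and IL11 on chromosome 19 (55364382 to 55370463). The RefSeq promoter table, on GRCh38.p14, held 8 of the 10 genes, all but CCL2 and LIF. In the 250 bases before each start, the NF-kappaB consensus decamer was found in 5 of these 8 promoters (CXCL1, CXCL2, CXCL3, IL6 and CCL20), against 9.96% of 35116 promoters of the same length. The 9-base word GGAATTTCC, a shorter kappaB word that was added to the search after the promoters had been read, was found in 4 (CXCL8, CXCL1, CXCL2 and CXCL3), against 0.413% of all promoters. In CXCL1, CXCL2 and CXCL3 it overlaps the decamer. These promoters are 87.9% to 92.2% identical over the window compared below, so their matches to either word are not independent of each other. Because GGAATTTCC was added after reading these promoters, the 0.413% is no fair yardstick for it, and its count is not read as a result. The AP-1 word TGANTCA was found in CXCL8 and IL11, against 6.57% of promoters. The cAMP response word TGACGTCA (1.65% of promoters), the forkhead word TGTTTAC (2.98%) and the SMAD box GTCTAGAC (0.182%) had no match in these windows. Words this rare are seldom met in 8 promoters, and shorter or looser forms were not searched, so their absence is not read as a result. None of the words was found in IL1B. Both strands were searched, and a match describes the letters only.

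The stretches that hold the matches are shown 5′ to 3′ on the strand of the gene, because the 4 CXC genes changed together in the comparisons with Vectors. Capitals mark the NF-kappaB decamer, GGAATTTCC or the AP-1 word. The windows run from 140 to 51 bases before the RefSeq start, except for CXCL3, of which 30 bases are shown. GENCODE also places starts of other transcripts upstream, so that the windows of CXCL3, IL6 and CCL20 lie within the gene spans given above, and those of CXCL3 and IL6 overlap annotated exons. They lie at chr4:73740429-73740518 (plus strand) for CXCL8, chr4:73869253-73869342 (plus) for CXCL1, chr4:74099246-74099335 (minus) for CXCL2, chr4:74038748-74038777 (minus) for CXCL3, chr7:22727060-22727149 (plus) for IL6, chr2:227813702-227813791 (plus) for CCL20 and chr19:55370514-55370603 (minus) for IL11.
CXCL8: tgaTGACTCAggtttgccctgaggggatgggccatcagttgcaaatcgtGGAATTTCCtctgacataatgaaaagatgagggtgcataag
CXCL1: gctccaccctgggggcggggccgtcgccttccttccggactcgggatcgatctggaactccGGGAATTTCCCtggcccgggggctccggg
CXCL2: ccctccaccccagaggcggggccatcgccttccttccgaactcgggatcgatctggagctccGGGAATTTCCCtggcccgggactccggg
CXCL3: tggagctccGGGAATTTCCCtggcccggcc
IL6: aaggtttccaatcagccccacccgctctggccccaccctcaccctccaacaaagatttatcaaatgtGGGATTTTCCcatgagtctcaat
CCL20: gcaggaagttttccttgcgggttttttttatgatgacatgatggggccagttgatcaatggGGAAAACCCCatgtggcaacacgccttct
IL11: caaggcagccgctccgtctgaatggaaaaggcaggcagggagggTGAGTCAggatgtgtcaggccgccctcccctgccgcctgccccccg

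Over the window from 140 to 51 bases, CXCL1 was 92.2% identical to CXCL3 and 89.0% identical to CXCL2, while CXCL8 was 40.8% to 44.1% identical to these 3. GGAATTTCC began 91 bases before the start in CXCL8, 78 bases before it in CXCL1 and CXCL3 and 77 bases before it in CXCL2. The decamer began 73 bases before the start of IL6 and 79 bases before that of CCL20.

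Levels between genes were compared per length, in TPM, which scale transcripts by length and library. In Vectors, CCL2 was the most abundant of the 10 at 229 ± 17.0 TPM (SD, n = 3), followed by CXCL8 at 136 ± 5.06, LIF at 43.9 ± 3.76, CXCL2 at 28.2 ± 0.941, IL6 at 23.7 ± 2.43 and IL1B at 13.9 ± 0.960. CXCL1 at 6.65 ± 0.436 and CXCL3 at 6.23 ± 0.352 did not differ beyond their spread, nor did IL11 at 4.45 ± 0.195 and CCL20 at 3.60 ± 0.960. In FOXL2C134W, CCL2 stood at 141 ± 21.5 TPM, CXCL8 at 52.6 ± 3.13 and LIF at 38.4 ± 5.09, so that CXCL8 lay nearer to LIF than to CCL2. IL6 at 15.8 ± 2.19 TPM came before CXCL2 at 11.2 ± 2.02 there. CXCL3 at 2.99 ± 0.544, CXCL1 at 2.98 ± 0.231 and CCL20 at 2.52 ± 0.181 were the lowest of the 10. Isoform estimates limit these levels for IL6, of whose reads 34.8% went to a transcript with a retained intron. They also limit those of CCL20, whose reads were split mainly over transcripts with 55.5%, 30.4% and 12.1% of them. Of the CXCL3 reads, 20.9% went to a processed transcript longer than the main one. CXCL1, CXCL2 and CXCL3 are close paralogues, and how reads were split between them was not tested.

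**Figure D1:**
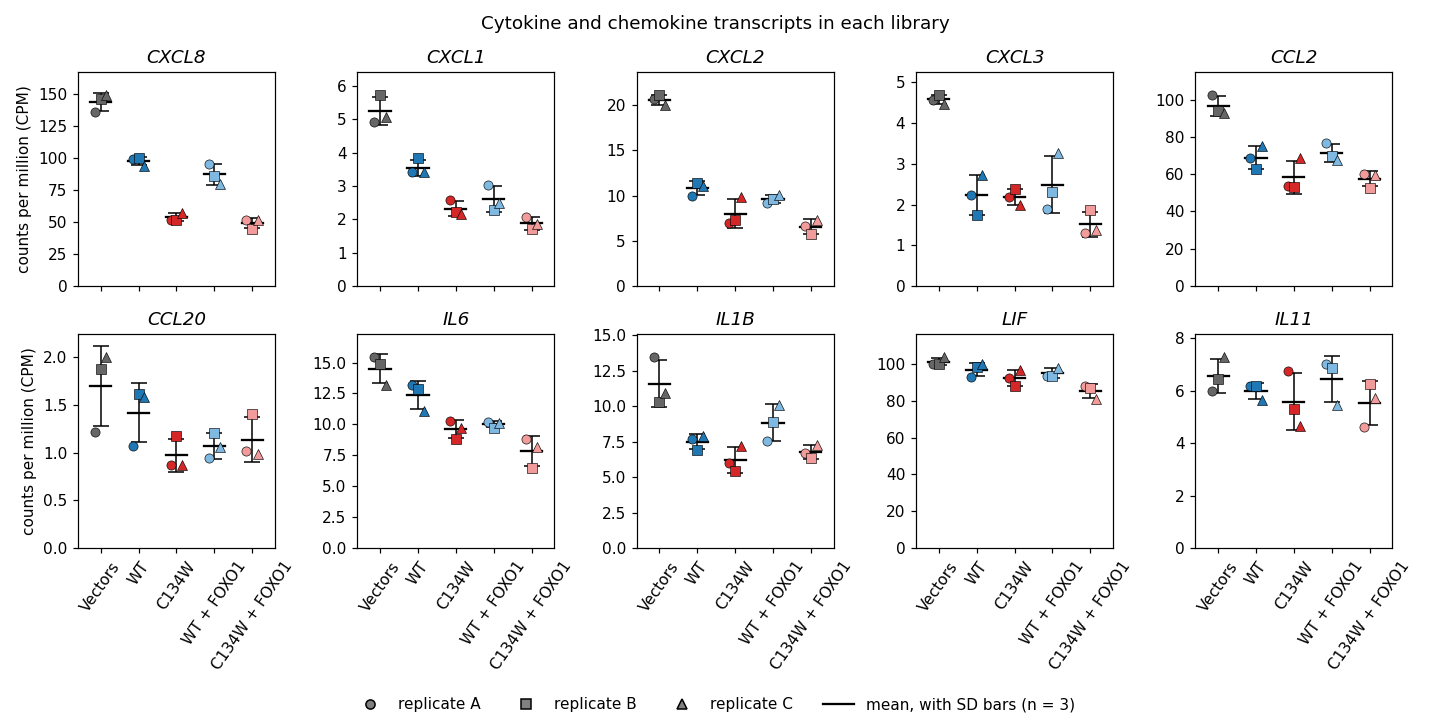
Level of each of the 10 transcripts in CPM (vertical axes, linear from 0), by condition, with WT and C134W for FOXL2WT and FOXL2C134W. Symbols are the libraries A, B and C, and horizontal lines with bars are the mean ± SD (n = 3). CXCL8 falls from 136 to 149 CPM in Vectors to 93.5 to 99.7 in FOXL2WT and 51.6 to 57.3 in FOXL2C134W, while LIF stays between 80.9 and 104 CPM in all 15 libraries.

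The first comparison set SMAD3 with FOXL2WT against empty vectors. Of the 10 genes, 6 were lower in FOXL2WT and 0 were higher by the quasi-likelihood test of edgeR at a Benjamini-Hochberg adjusted p under 0.05. Those were the 4 CXC chemokines, CCL2 and IL1B. Of all 13868 genes tested, 6.07% were called, and 3.61% were called lower. All 10 estimates were below 0, with a median log2 fold change of -0.52, against 0.0025 over all genes. In 7 of the 10 the FOXL2WT libraries lay below all Vectors libraries without overlap, against 15.9% of all genes.

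The second comparison set SMAD3 with FOXL2C134W against the same Vectors libraries. Here 8 of the 10 were lower and 0 higher, the same 6 with CCL20 and IL6, against 14.7% of all genes called and 7.24% called lower. The median log2 fold change of the 10 was -0.85, against 0.0043 over all genes. In 9 of the 10, all but IL11, the libraries were lower without overlap, against 16.1% of all genes. LIF and IL11 did not pass the test in either comparison.

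The third comparison set the mutant against the wild type. CXCL8, CXCL1, CXCL2 and IL6 were lower in FOXL2C134W, 4 of 10, against 11.2% of all genes called and 4.12% called lower. The median log2 fold change of the 10 was -0.32, against -0.01 over all genes. The same 4 were lower without overlap, against 15.6% of all genes. The comparisons share libraries, and their counts are not independent of each other. The count of 4 fell to 1, CXCL8 alone, without FOXL2WT B, without FOXL2C134W B, and by DESeq2 with transcript length offsets.

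**Figure D2:**
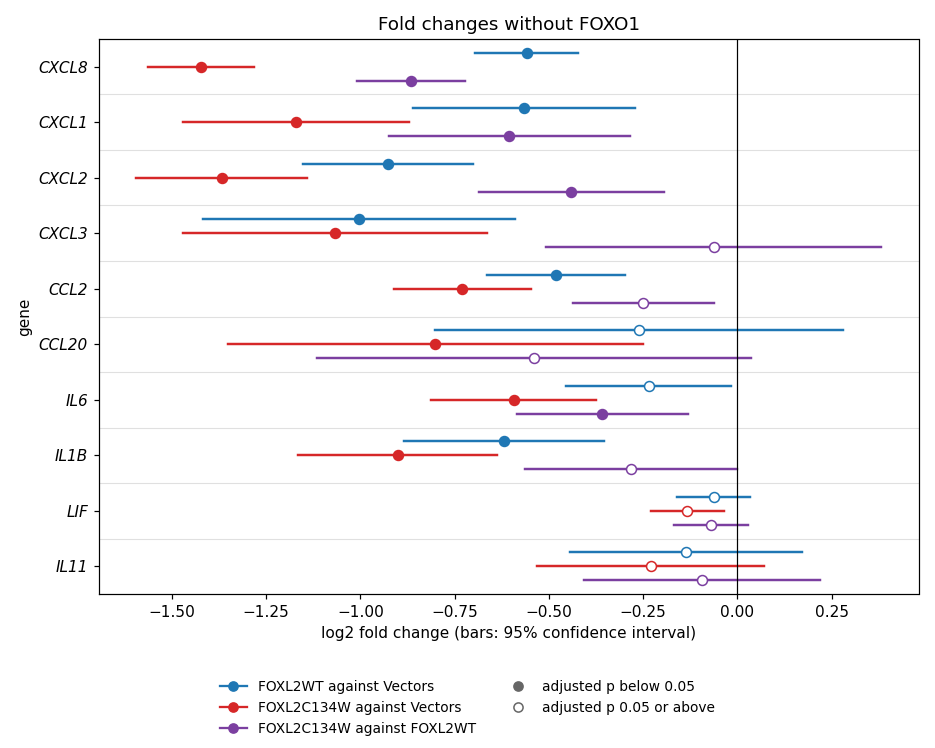
Log2 fold change (horizontal axis) of the 10 genes in the 3 comparisons without FOXO1, with bars for the 95% confidence interval and filled points for an edgeR adjusted p below 0.05. Points lie left of 0 in all 3 comparisons, from -1.42 for CXCL8 in FOXL2C134W against Vectors to -0.06 for LIF in FOXL2WT against Vectors and for CXCL3 in FOXL2C134W against FOXL2WT.

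CXCL8, also called interleukin-8, is the main human neutrophil attractant. It measured 136, 146 and 149 CPM in the Vectors libraries, 99.2, 99.7 and 93.5 CPM in FOXL2WT, and 51.6, 51.7 and 57.3 CPM in FOXL2C134W. The 3 conditions did not overlap, and each step was larger than the spread within a condition. The log2 fold change was -0.56 (standard error 0.07, edgeR adjusted p = 4.4e-05) in FOXL2WT against Vectors and -1.42 (standard error 0.07, edgeR adjusted p = 1.4e-10) in FOXL2C134W against Vectors. Mean CPM was thus 68.0% of the Vectors mean in FOXL2WT and 37.3% in FOXL2C134W. CXCL8 kept its call in all 3 comparisons in each fit that left out a library and under every other alternative.

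CXCL1 and CXCL2 bind CXCR2 and are often induced together with CXCL8. CXCL2 measured 20.7, 21.2 and 20.03 CPM in Vectors, 10.0, 11.4 and 11.1 CPM in FOXL2WT and 6.92, 7.31 and 9.81 CPM in FOXL2C134W. The conditions did not overlap, although FOXL2C134W C came close to the lowest FOXL2WT library. On the log2 scale CXCL2 differed by -0.93 (standard error 0.11, edgeR adjusted p = 4.1e-05) in FOXL2WT against Vectors, -1.37 (standard error 0.11, edgeR adjusted p = 2.6e-07) in FOXL2C134W against Vectors and -0.44 (standard error 0.12, edgeR adjusted p = 0.020) in FOXL2C134W against FOXL2WT. For CXCL2 the larger part of the difference was already present in FOXL2WT, where the mean was 52.6% of Vectors, against 38.9% in FOXL2C134W. The call between mutant and wild type was lost in 4 of 6 fits that left out a library.

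CXCL1 was read at a lower level, 40 to 127 counts per library over all conditions. It measured 4.93, 5.73 and 5.08 CPM in Vectors, 3.41, 3.83 and 3.42 CPM in FOXL2WT and 2.57, 2.21 and 2.17 CPM in FOXL2C134W. The 3 conditions did not overlap. CXCL1 differed by -0.57 (standard error 0.14, edgeR adjusted p = 0.022) in FOXL2WT against Vectors, -1.17 (standard error 0.14, edgeR adjusted p = 2.9e-05) in FOXL2C134W against Vectors and -0.60 (standard error 0.15, edgeR adjusted p = 0.014) between mutant and wild type. The call in FOXL2WT against Vectors was lost without Vectors A, Vectors B, FOXL2WT A or FOXL2WT C, with adjusted p from 0.059 to 0.086. That between mutant and wild type was lost without FOXL2WT B, FOXL2C134W B or FOXL2C134W C.

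CXCL3, also a CXCR2 ligand, stood at similar levels in both FOXL2 conditions. It measured 4.58, 4.70 and 4.48 CPM in Vectors, 2.24, 1.75 and 2.74 CPM in FOXL2WT and 2.18, 2.38 and 1.98 CPM in FOXL2C134W. Both FOXL2 conditions lay below Vectors, and they overlapped each other. Against Vectors, CXCL3 differed by -1.004 (standard error 0.20, edgeR adjusted p = 0.0045) in FOXL2WT and -1.07 (standard error 0.19, edgeR adjusted p = 0.00096) in FOXL2C134W on the log2 scale. Between mutant and wild type it was -0.06, with a 95% confidence interval of -0.51 to 0.38, which at 26 to 112 counts per library leaves room for a difference of the size seen for CXCL2. Whether CXCL3 differs in this from CXCL1 or CXCL2 was not tested.

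CCL2 measured 103, 94.1 and 92.8 CPM in Vectors, 68.5, 62.9 and 75.4 CPM in FOXL2WT and 53.5, 52.9 and 68.5 CPM in FOXL2C134W. Vectors stood above both FOXL2 conditions, while FOXL2C134W C lay within the range of FOXL2WT. The log2 fold change against Vectors was -0.48 (standard error 0.09, edgeR adjusted p = 0.0027) in FOXL2WT and -0.73 (standard error 0.09, edgeR adjusted p = 2.2e-05) in FOXL2C134W. Between mutant and wild type CCL2 changed by -0.25 (95% confidence interval -0.44 to -0.06) and did not pass the test (edgeR adjusted p = 0.081), but passed it without FOXL2C134W C (edgeR adjusted p = 0.0075).

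CCL20 had the fewest counts of the 10 genes, with 14 to 50 counts per library. It measured 1.22, 1.88 and 1.999 CPM in Vectors, 1.06, 1.61 and 1.58 CPM in FOXL2WT and 0.871, 1.17 and 0.875 CPM in FOXL2C134W. Only the mutant lay below Vectors without overlap. Its value of -0.80 on the log2 scale (standard error 0.26, edgeR adjusted p = 0.047) in FOXL2C134W against Vectors passed narrowly, and was lost in 5 of 6 fits that left out a library, all but the one without Vectors A. The call was also lost under 3 of 6 other alternatives. In FOXL2WT the value was -0.26, with a wide 95% confidence interval of -0.80 to 0.28.

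IL1B, the precursor of secreted interleukin-1 beta, measured 13.5, 10.3 and 11.0 CPM in Vectors, 7.72, 6.91 and 7.91 CPM in FOXL2WT and 5.98, 5.47 and 7.23 CPM in FOXL2C134W. Vectors stood above both FOXL2 conditions, which overlapped each other. The log2 fold change against Vectors was -0.62 (standard error 0.13, edgeR adjusted p = 0.0061) in FOXL2WT, a call lost without Vectors A (edgeR adjusted p = 0.056), and -0.90 (standard error 0.13, edgeR adjusted p = 9.5e-05) in FOXL2C134W. Between mutant and wild type it was -0.28 (edgeR adjusted p = 0.20).

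IL6, which drives the acute-phase response and B cell maturation, measured 15.4, 14.9 and 13.2 CPM in Vectors, 13.2, 12.8 and 11.1 CPM in FOXL2WT and 10.2, 8.82 and 9.72 CPM in FOXL2C134W. The mutant lay below both other conditions, and FOXL2WT reached the lowest Vectors library. IL6 fell by 0.59 on the log2 scale in FOXL2C134W against Vectors (standard error 0.10, edgeR adjusted p = 0.00081), and the value of -0.23 in FOXL2WT did not pass (edgeR adjusted p = 0.20). Between mutant and wild type the log2 fold change was -0.36 (standard error 0.11, edgeR adjusted p = 0.038), a call lost without FOXL2WT A, FOXL2WT B, FOXL2C134W B or FOXL2C134W C. With transcript length offsets in DESeq2 the value for IL6 was -0.24 and did not pass (adjusted p = 0.58).

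LIF and IL11, which act through LIFR or IL11RA together with IL6ST, did not pass the test. LIF measured 99.9, 100 and 104 CPM in Vectors, 92.7, 98.3 and 99.6 CPM in FOXL2WT and 92.5, 88.01 and 96.6 CPM in FOXL2C134W. Its FOXL2WT and FOXL2C134W libraries lay below all Vectors libraries, by a small margin. At 1389 to 2592 counts per library the log2 fold change was -0.13 in FOXL2C134W against Vectors, with a narrow 95% confidence interval of -0.23 to -0.04 (edgeR adjusted p = 0.061), and it passed without FOXL2C134W C (edgeR adjusted p = 0.042). IL11 ranged from 5.97 to 7.28 CPM in Vectors, from 5.64 to 6.18 in FOXL2WT and from 4.65 to 6.77 in FOXL2C134W. These ranges overlapped, and the log2 fold change in FOXL2C134W against Vectors was -0.23 (95% confidence interval -0.53 to 0.07, edgeR adjusted p = 0.32). It became -0.40 without FOXL2C134W A, -0.12 without FOXL2C134W C, -0.14 without Vectors C and -0.067 by DESeq2 with length offsets, and passed under none of these.

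FOXO1-3A was added to ask how an active FOXO1 alters the transcriptome set by SMAD3 with either FOXL2. FOXO1 mRNA stood at 12.2 ± 0.661 CPM in FOXL2WT and 117 ± 14.5 CPM in FOXL2WT + FOXO1, and at 11.99 ± 0.423 CPM in FOXL2C134W and 43.2 ± 4.06 CPM in FOXL2C134W + FOXO1 (SD, n = 3). SMAD3 was lower in both FOXO1 conditions than in their counterparts, so FOXO1 and the amount of SMAD3 cannot be told apart. None of the 10 genes passed the edgeR test in FOXL2WT + FOXO1 against FOXL2WT, where 0.0505% of all genes were called. There CXCL8, CXCL1 and IL6 had an unadjusted p under 0.05. DESeq2 gave an adjusted p to only 3 of the 10 genes, CXCL8, CCL2 and LIF, and called 0 of these. In FOXL2C134W + FOXO1 against FOXL2C134W, 0 of 10 were called, against 0.714% of all genes. There CXCL2, CXCL3, IL6 and LIF had an unadjusted p under 0.05, and DESeq2 also called 0. In both comparisons the share of all genes under that unadjusted threshold is not given, so the genes under it are not read as a result.

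In the libraries with FOXO1, CXCL8 measured 95.4, 85.9 and 79.5 CPM beside FOXL2WT and 51.8, 44.6 and 51.2 CPM beside FOXL2C134W. Both ranges overlapped those without FOXO1, and the log2 fold changes on adding FOXO1 were -0.17 (95% confidence interval -0.31 to -0.03, edgeR adjusted p = 0.49) and -0.12 (-0.27 to 0.03, edgeR adjusted p = 0.57). CXCL1 measured 3.03, 2.27 and 2.50 CPM in FOXL2WT + FOXO1, all below the FOXL2WT libraries, and 2.08, 1.70 and 1.85 CPM in FOXL2C134W + FOXO1, all below the FOXL2C134W libraries. Its log2 fold changes of -0.46 (95% confidence interval -0.78 to -0.13) and -0.31 (-0.65 to 0.03) did not pass, with edgeR adjusted p of 0.38 and 0.51. On adding FOXO1, IL6 in FOXL2WT and CXCL3 and LIF in FOXL2C134W were likewise lower without overlap. The share of all genes without overlap is not given for either comparison, so these gaps are not read as a result. IL6 measured 10.2, 9.74 and 10.1 CPM in FOXL2WT + FOXO1 and 8.86, 6.47 and 8.21 CPM in FOXL2C134W + FOXO1. Its estimates were -0.30 and -0.29, with edgeR adjusted p of 0.44 and 0.29, and the first became -0.077 by DESeq2 with transcript length offsets and the second -0.17 without FOXL2C134W + FOXO1 B. IL1B had estimates above 0, of 0.24 and 0.13, and did not pass either (edgeR adjusted p = 0.61 and 0.81).

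The mean of each of the 8 genes lower in FOXL2C134W than in Vectors was also below the Vectors mean in FOXL2C134W + FOXO1. CXCL8 stood at 34.3% of Vectors there, CXCL2 at 31.8%, CXCL3 at 33.0%, CXCL1 at 35.8%, IL6 at 54.1%, IL1B at 58.7%, CCL2 at 59.7% and CCL20 at 66.9%. For CXCL8, CXCL1, CXCL2, CXCL3, CCL2 and IL6 these means were lower than those without FOXO1, of 37.3%, 44.2%, 38.9%, 47.6%, 60.4% and 66.2%. For IL1B and CCL20 they were higher than the 53.7% and 57.2% without FOXO1. None of these 8 differences between FOXL2C134W + FOXO1 and FOXL2C134W passed the test. These levels are a description, since FOXL2C134W + FOXO1 was not compared with Vectors by a test.

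Between mutant and wild type in the presence of FOXO1, CXCL8 was again lower, at -0.82 on the log2 scale (standard error 0.07, edgeR adjusted p = 2.1e-06), and was the only 1 of the 10 that passed, against 0.144% of all genes called and 0.108% called lower. In 8 of 10 genes, all but CCL20 and IL11, the FOXL2C134W + FOXO1 libraries lay below all FOXL2WT + FOXO1 libraries, against 7.79% of all genes, and the median log2 fold change of the 10 was -0.37. CXCL2, at -0.56 on the log2 scale with a standard error of 0.12, did not pass (edgeR adjusted p = 0.081) but passed in DESeq2 (adjusted p = 0.012). CXCL3 measured 1.88, 2.32 and 3.27 CPM beside FOXL2WT and 1.29, 1.87 and 1.38 CPM beside FOXL2C134W. These did not overlap, and the log2 fold change of -0.73 had a wide 95% confidence interval of -1.20 to -0.27 (edgeR adjusted p = 0.21).

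The effect of FOXO1 in FOXL2C134W minus its effect in FOXL2WT was called for 0 of the 10 genes by edgeR, against 1.38% of all genes, and by DESeq2 for 0 of the 7 with an adjusted p. Only CXCL3 had an unadjusted p under 0.05, a threshold for which the share of all genes is not given. For CXCL8 the difference was 0.05 (95% confidence interval -0.16 to 0.25), and the widest values were -0.67 for CXCL3 (-1.31 to -0.03, edgeR adjusted p = 0.37) and 0.62 for CCL20 (-0.20 to 1.44, edgeR adjusted p = 0.57).

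**Figure D3:**
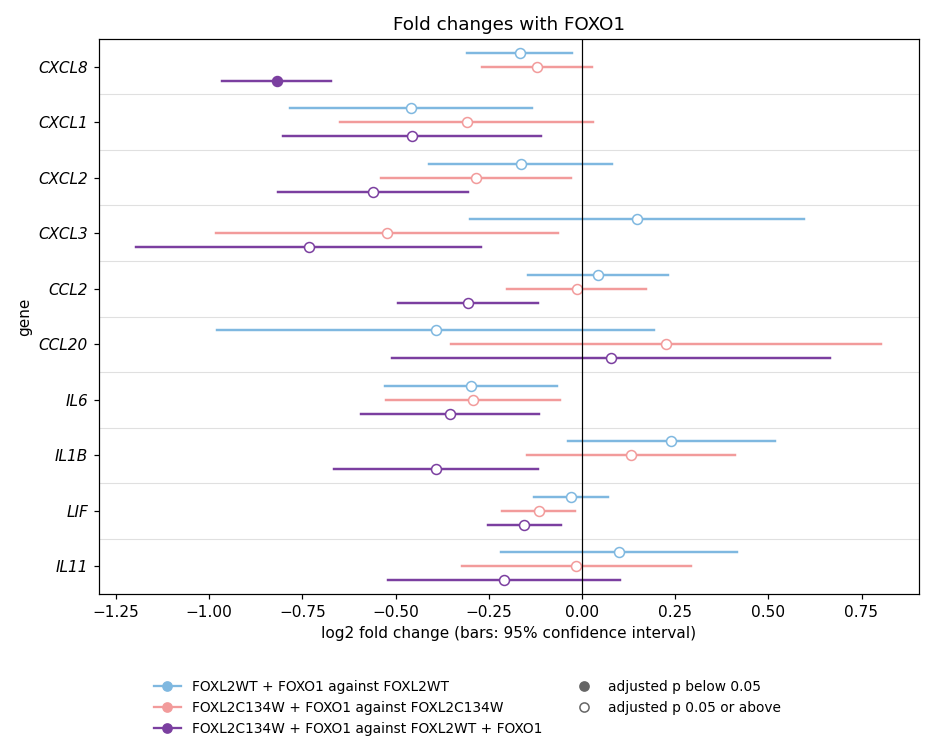
Log2 fold change (horizontal axis) of the 10 genes on adding FOXO1 to either FOXL2 and between mutant and wild type with FOXO1 present, with bars for the 95% confidence interval. Filled points mark an edgeR adjusted p below 0.05, and CXCL8 between FOXL2C134W + FOXO1 and FOXL2WT + FOXO1, at -0.82, is the only one.

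Related genes were read from 10 lists of 114 genes, of which 81 were tested. In FOXL2C134W against Vectors 27 of the 81 were called, 24 lower and 3 higher, against 14.7% of all genes called and 7.24% called lower. In FOXL2WT against Vectors 15 were called, 13 lower and 2 higher, against 6.07% of all genes called and 3.61% called lower. The count between mutant and wild type was 15, with 13 lower and 2 higher, against 11.2% and 4.12%. On adding FOXO1, edgeR called 0 in either background. The values that follow are log2 fold changes in FOXL2C134W against Vectors unless stated.

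Of the other CXC and CX3C chemokines, 3 of 4 tested were lower, with a list median of -1.34. These were CXCL10 (-1.31, edgeR adjusted p = 0.00012) and CXCL11 (-1.36, edgeR adjusted p = 0.00074), interferon-inducible ligands of CXCR3, and CX3CL1 (-1.62, edgeR adjusted p = 5.7e-05), a membrane-bound chemokine for monocytes and T cells. CXCL10 also fell between mutant and wild type, by 1.08 (edgeR adjusted p = 0.0014), from 4.46 ± 0.318 to 2.13 ± 0.416 CPM. Of the other CC chemokines, CCL5 (-0.84, edgeR adjusted p = 3.6e-06) and CCL3 (-1.19, edgeR adjusted p = 0.019) were lower among 3 tested, and CCL28 (0.63) did not pass. CCL3 had at most 49 counts in a library. CXCL5 and CXCL6 were the only tested genes of 4 further chemokines from the cluster of CXCL8. They did not pass, at -0.26 and -1.13, with at most 12 and 34 counts in a library.

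Of 13 other cytokines tested, 6 were lower and 0 higher, with a median of -0.51. IL1A, the second interleukin-1 agonist, fell by 1.04 (edgeR adjusted p = 3.5e-05) and the death ligand TNFSF10 fell by 1.34 (edgeR adjusted p = 1.6e-06), from 48.4 ± 5.58 to 19.2 ± 3.19 CPM. The colony-stimulating factors CSF2 (-1.37, edgeR adjusted p = 0.0012) and CSF1 (-0.41, edgeR adjusted p = 0.00017) fell as well, with IL15 (-0.51) and TNFSF15 (-1.18). CSF2 had at most 59 counts in a library. Of 4 other ligands of the IL6 family tested, 0 were called by edgeR in any comparison, and their median was 0.12. LIF and IL11 thus stood beside CLCF1 (-0.03), CTF1 (0.24) and CNTF (0.08) among the genes of this family that did not pass.

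In the lists that follow, small counts stand beside the 14.7% of all genes called and 7.24% called lower in this comparison, and counts of 1 or 2 are not read as results on a list. Of 9 receptors and antagonists tested, 2 were lower, the chemokine scavenger ACKR4 (-1.69, edgeR adjusted p = 0.0013, at most 42 counts in a library) and the interleukin-1 receptor IL1R1 (-0.46, edgeR adjusted p = 0.00078). Among 5 tested genes for IL1B processing, CASP1, which encodes caspase-1, was lower (-0.45, edgeR adjusted p = 0.0028). In the JAK-STAT3 arm, downstream of IL6, LIF and IL11, 4 of 12 were lower, among them JUNB (-0.42), BCL3 (-0.31) and PIM1 (-0.30), and the median was -0.15. BCL3 (-0.45) was also lower in FOXL2WT, where CEBPB (0.54, edgeR adjusted p = 0.0086) was higher.

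Among 16 genes of the NF-kappaB pathway, 4 were lower and 1 higher, and the median was -0.03. The 3 with the widest changes are feedback genes that NF-kappaB itself induces, NFKBIZ (-0.78, edgeR adjusted p = 6.7e-06), TNFAIP3 (-0.64, edgeR adjusted p = 3.1e-07) and NFKBIA (-0.58, edgeR adjusted p = 1.3e-08). The adaptor MYD88 changed by -0.19 and IRAK1, a kinase below it, by 0.15. The subunit gene RELB was called between mutant and wild type (-0.42, edgeR adjusted p = 0.0048), and RELA, REL, NFKB1 and NFKB2 were called in none of the 3 comparisons without FOXO1. Of 13 regulators of mRNA decay, 4 were called, against 14.7% of all genes. Of these, 2 were lower, ZC3H12A (-0.59, edgeR adjusted p = 0.00023) and ZC3H12C (-0.28), of a family of RNases that cut cytokine mRNAs. HNRNPD (0.17) and KHSRP (0.18), which bind AU-rich elements, were higher, and DUSP1, a phosphatase of MAP kinases, was higher in FOXL2WT (0.27, edgeR adjusted p = 0.042).

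**Figure D4:**
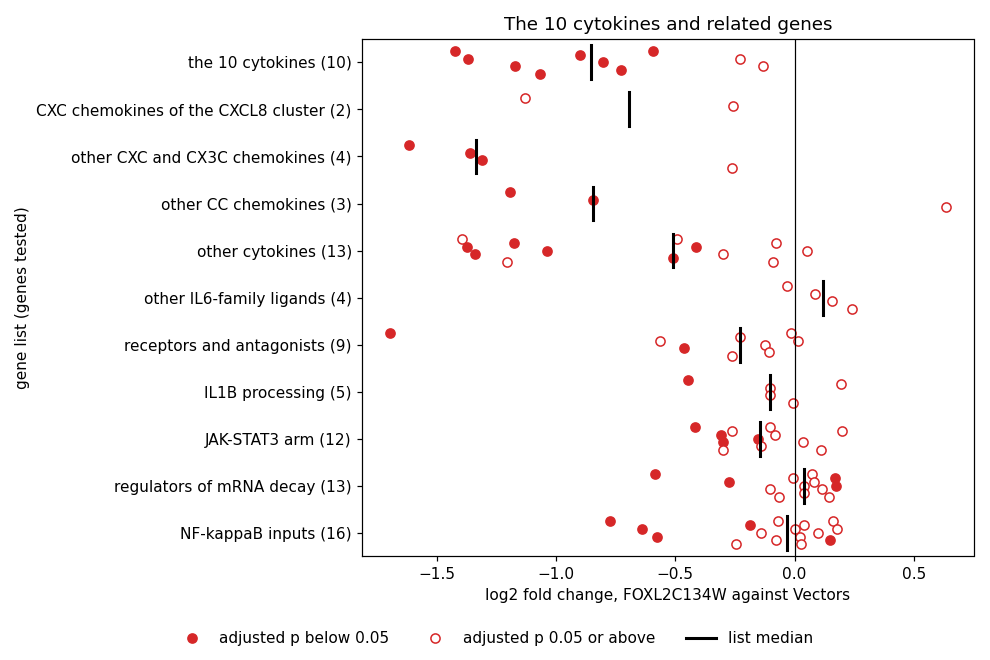
Log2 fold change in FOXL2C134W against Vectors (horizontal axis) of the 10 cytokines and of each tested gene of the related lists, with the number tested in parentheses, filled points for an edgeR adjusted p below 0.05 and a vertical line for each list's median. Chemokine and cytokine lists have medians from -1.34 to -0.51, while ligands of the IL6 family, regulators of mRNA decay and the NF-kappaB pathway have medians from -0.03 to 0.12. Receptors and antagonists (-0.23), the JAK-STAT3 arm (-0.15) and IL1B processing (-0.10) lie between.

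The genes most like LIF, which had the highest mean CPM of the 10, over the 15 libraries were ABTB1 (Pearson's r of log2 CPM 0.89), SLC66A1L (0.87), NEAT1 (0.87), TRAF1 (0.87) and NEU1 (0.85). The libraries share conditions, so these correlations describe the pattern only. NEAT1, a long noncoding RNA of nuclear paraspeckles, was lower than Vectors in FOXL2WT (-0.53, edgeR adjusted p = 0.0018) and in FOXL2C134W (-0.73, edgeR adjusted p = 3.5e-05). It was also called lower on adding FOXO1 to FOXL2C134W (-0.62, edgeR adjusted p = 0.010). TRAF1, an adaptor of TNF receptors, was lower in FOXL2C134W than in Vectors (-0.57, edgeR adjusted p = 0.00029) and than in FOXL2WT (-0.33, edgeR adjusted p = 0.027).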

How the data were processed

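RNA of 15 HGrC1 libraries was read as 75-bp single ends from stranded mRNA libraries. Per the submitters' processing notes, the authors ran Salmon 1.1.0 on hg38 and deposited rounded estimated counts for 37787 genes without normalization. The authors also deposited TPM per transcript, scaled within each library, used here for levels between genes. Library totals of 14962245 to 25339094 estimated counts set the precision. Genes were filtered with filterByExpr (13868 left), scaled by TMM and tested by the quasi-likelihood method in edgeR 4.0.16 in R 4.3.3, with 1 term per condition over all libraries and Benjamini-Hochberg adjusted p under 0.05 over all genes. CPM use TMM-scaled totals with no prior count. Conditions and letters came from the labels. The 10 members, the related lists, the alternatives and the rule for named genes (members, called genes of the lists, the 5 genes most correlated with the member of highest mean CPM, and the transfected and NF-kappaB feedback genes) were chosen with earlier results of these data known. The alternatives were DESeq2 1.42.0 with and without transcript length offsets, its size factors in edgeR, filters of at least 1 count in any or 10 counts in every library, only the libraries compared, a replicate block, and each library left out. The test was checked on simulated data. Promoter words were searched in RefSeq sequence, and gene positions were taken from GENCODE 44, which may not be the authors' release. Single values of a few listed genes are not reported here.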

Additional observations from a re-analysis of the deposited data

Results flagged for a closer look

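For none of the 10 cytokines did the difference in the response to FOXO1 between FOXL2 backgrounds pass the test of edgeR. CXCL3 alone had an unadjusted p under 0.05. DESeq2 called 0 of the genes to which it gave an adjusted p, and CXCL3 was not among them. Among the other genes named, NFKBIA passed the test of that difference at 0.30 (edgeR adjusted p = 0.0083). The value is the effect in FOXL2C134W minus the effect in FOXL2WT, on the log2 scale. NFKBIA was the only 1 of the 81 related genes tested that was called, against 1.38% of all genes. That count is not read as a result on the related genes. The transfected genes FOXL2 at 0.60 (edgeR adjusted p = 0.033), SMAD3 at 0.41 (edgeR adjusted p = 0.0065) and FOXO1 at -1.41 (edgeR adjusted p = 4.7e-05) passed as well. NFKBIA went from 104 ± 0.735 to 90.8 ± 0.991 CPM with FOXO1 beside FOXL2WT and from 80.0 ± 1.21 to 86.1 ± 1.57 CPM beside FOXL2C134W (SD, n = 3). The amounts of transfected mRNA moved with the conditions and cannot be told apart from the background.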

How the results depend on the processing

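Over all alternatives 763 of 812 single-gene values kept their direction and their side of the threshold, and no called value changed sign. Of the calls, 21 were lost with a library left out and 8 under other alternatives, and 2 and 6 calls, respectively, were gained. Where DESeq2 gave no adjusted p, as for CCL20 and CXCL3 in several comparisons, no value was counted. Between mutant and wild type the 4 genes called became 1 by DESeq2 with length offsets and 1 to 3 with a library left out. With FOXO1 present the 1 called became 2 by DESeq2, 2 with length offsets and 4 with at least 1 count in any library. The share of all genes called is not given for the alternative fits, so shifts in these counts are not read as results on the 10 genes. Of uncalled values near 0, IL11 between mutant and wild type became 0.22 with length offsets and -0.26 to 0.017 with a library left out, and CXCL3 there -0.19 to 0.12. With a library left out, CCL2 ranged from -0.016 to 0.11 and CXCL3 from -0.10 to 0.33 on adding FOXO1 to FOXL2WT, and CCL2 from -0.079 to 0.11 and IL11 from -0.12 to 0.15 on adding it to FOXL2C134W. CCL20 between mutant and wild type with FOXO1 ranged from -0.11 to 0.18, and the interaction of CXCL8 from -0.015 to 0.11. The cause of these shifts was not tested.

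Deviations from the condition means gave no sign that the letters A, B and C pair the libraries. They correlated at a median of 0.0036 (range -0.16 to 0.17) for the same letter and 0.0058 (range -0.12 to 0.12) for different letters. Whether cultures with the same letter were handled together is not stated, and these correlations cannot settle it. With a replicate block, 6 genes were called in FOXL2WT and 8 in FOXL2C134W against Vectors. Counts of 14 to 50 for CCL20 and 26 to 112 for CXCL3 limit what can be detected for these genes. The 15 pairs of replicate libraries differed by more than sampling noise, at 2.21 to 8.84 chi-square per degree of freedom.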
